A study of Homo sapiens with 14 samples.

Results

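The 35 genes described here are interferon response genes: RNA sensors, transcription factors and antiviral effectors that many cell types turn on when interferon reaches them. They were chosen by name and were found as 35 of the 19923 genes in the deposited count tables. Transcripts had been sequenced in 14 libraries, all of SK-N-BE2, a long-established MYCN-amplified line derived from a neuroblastoma and grown in RPMI medium with serum. There were 7 groups of 2 libraries in 2 labelled batches. In batch 1 the cells were of wild-type genotype and received either water, the control called H2O, or CoCl2 at 10 µM or at 50 µM. Batch 2 held untreated cells: WT, and 3 groups with a TET2 knockout genotype, named TET2KO #1, TET2KO #2 and TET2KO #3. The time in CoCl2, how the knockouts were made, and whether each number is 1 clone were not given in the sources used here. Neither was it stated that the replicates came from separate cultures, so the p-values measure the spread between these libraries, which may be technical.

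Type I and type III interferons bind receptors that signal through the kinases JAK1 and TYK2 to the complex ISGF3, of which STAT2 and IRF9 are subunits. ISGF3 binds interferon-stimulated response elements (ISRE) near the start of its target genes, while type II interferon acts through gamma-activated sites (GAS). The cytoplasmic sensors RIG-I, MDA5 and LGP2 recognise viral or unedited double-stranded RNA, and the induced proteins block steps of viral entry, translation or replication. Cobalt chloride is a salt widely used to mimic low oxygen, and TET2 is an enzyme that oxidises 5-methylcytosine in DNA.

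Stretches of 160 bases that end just before a start site given by RefSeq are shown for 7 members, all with an ISRE match. Of these, 4 were called lower in some labelled knockout (IFITM3, BST2, PARP14, IFIT3) and 4 were called in CoCl2 (IFIT3, IFIT5, OAS3, PARP12). Other members called against H2O or WT are not shown. Of these, PARP9, OAS1, STAT2, ADAR, IRF1, DDX58 and SAMHD1 had no ISRE match in their promoter windows. IFIT1, IFI6 and EIF2AK2 had a match, and no window was found for IFITM2 and IRF7. The sequences are those of RefSeq on GRCh38.p14, written 5′ to 3′ on the strand of the gene. For IFITM3 and OAS3 that start site lies inside the wider gene span of the count tables, which is given with their values below. Capitals mark matches to the ISRE core, which is GAAA, any 2 bases and GAAA, or, for a match on the other strand, TTTC, any 2 bases and TTTC. Matches that overlap run together. They lie at chr11:320861-321020 (minus strand) for IFITM3, chr19:17405631-17405790 (minus) for BST2, chr3:122680679-122680838 (plus) for PARP14, chr10:89327837-89327996 (plus) for IFIT3, chr10:89414408-89414567 (plus) for IFIT5, chr12:112938314-112938473 (plus) for OAS3 and chr7:140062952-140063111 (minus) for PARP12.
IFITM3: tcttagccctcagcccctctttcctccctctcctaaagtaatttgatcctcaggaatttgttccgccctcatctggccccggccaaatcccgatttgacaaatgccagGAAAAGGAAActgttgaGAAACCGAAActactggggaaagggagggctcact
BST2: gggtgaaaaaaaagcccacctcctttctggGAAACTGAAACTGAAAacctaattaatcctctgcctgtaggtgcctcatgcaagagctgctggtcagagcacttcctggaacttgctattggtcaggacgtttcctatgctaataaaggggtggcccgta
PARP14: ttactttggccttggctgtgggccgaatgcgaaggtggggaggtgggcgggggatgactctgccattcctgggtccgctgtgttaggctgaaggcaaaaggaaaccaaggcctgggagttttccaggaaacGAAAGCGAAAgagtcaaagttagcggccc
IFIT3: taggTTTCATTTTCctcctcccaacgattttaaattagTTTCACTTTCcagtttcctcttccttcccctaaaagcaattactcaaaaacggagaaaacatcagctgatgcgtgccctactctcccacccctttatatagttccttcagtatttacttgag
IFIT5: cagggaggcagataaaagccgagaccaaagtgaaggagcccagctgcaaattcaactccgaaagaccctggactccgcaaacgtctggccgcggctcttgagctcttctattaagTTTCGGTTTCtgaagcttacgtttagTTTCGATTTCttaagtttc
OAS3: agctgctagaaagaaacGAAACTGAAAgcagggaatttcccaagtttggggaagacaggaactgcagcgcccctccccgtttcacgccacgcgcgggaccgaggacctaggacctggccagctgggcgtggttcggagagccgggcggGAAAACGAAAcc
PARP12: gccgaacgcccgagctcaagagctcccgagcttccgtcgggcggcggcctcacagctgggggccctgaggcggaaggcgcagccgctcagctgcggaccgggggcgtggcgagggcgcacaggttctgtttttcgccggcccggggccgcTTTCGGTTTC

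Promoter windows of 300 bases, from 250 before to 50 after the start, were found by symbol for 27 of the 35 members. The ISRE core was found, on either strand, in 17 of these 27 windows (63.0%) and in 996 of all 27305 promoter windows (3.65%). The GAS core TTCNNNGAA was found in 8 of 27 (29.6%) and in 2152 of all windows (7.88%). IFITM3, IFIT3 and OAS3 each held 2 ISRE matches, and IFIT5 held 3, the last of them across the start. BST2 held 2 overlapping ISRE matches and 2 GAS matches. IFI35, OAS1, STAT2, IRF1, IRF9, DDX58, PARP9, SAMHD1, XAF1 and ADAR had no ISRE match in the window. A match is a description of the letters, and no binding was measured here.

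Library totals ranged from 31214128 to 39540111 counts in batch 1 and from 52095024 to 59263320 in batch 2. Levels are given as CPM, counts scaled to a common total with each library's TMM factor applied, which differ slightly from counts over the unscaled total. On the unscaled total, 3 counts, the level that a count of 0 still allows, corresponded to 0.0759 to 0.0961 CPM in batch 1 and 0.0506 to 0.0576 CPM in batch 2. In batch 2 a read pair mostly gave 2 counts, so there a count of 0 allows more than this. Such limits cover counting error only. Comparisons were made within a batch by edgeR's quasi-likelihood test over all genes tested, 13636 in batch 1 and 14061 in batch 2, and "called" means that the p-value, after Benjamini-Hochberg adjustment, was under 0.05. TET2 was examined first: its mRNA was at 70.8 and 64.8 CPM in WT, 80.4 and 76.6 in TET2KO #1, 87.4 and 91.1 in TET2KO #2, and 68.2 and 75.4 in TET2KO #3. It was thus not lower in any group labelled knockout. It was called higher in TET2KO #1 (log2 fold change 0.21, adjusted p 0.000664), a call lost without WT replicate 2. In TET2KO #2 it was also called higher (0.40, adjusted p 3.86e-12), and in TET2KO #3 it was not called (0.08, adjusted p 0.301). A count per gene cannot reveal an edit within the transcript. Every direction given below for a labelled knockout rests on its label. TET2 rose at 50 µM CoCl2 by 0.17 on the log2 scale (adjusted p 1.00e-06).

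Interferons themselves were close to undetected. Of 21 type I, II and III interferon genes, 17 had no count in any of the 14 libraries, and the other 4 (IFNA21, IFNB1, IFNK and IFNW1) reached 2 counts at most, with 6 counts in all. The response genes nevertheless covered a wide range. Per length of exon (RPKM, the CPM divided by the exon length in kb), ADAR led in H2O at 57.8, followed by EIF2AK2 at 21.4, IFIT5 at 15.4, OAS3 at 10.4 and OAS1 at 8.95. In WT the order was ADAR at 61.4, IFIT5 at 13.99, EIF2AK2 at 13.9, OAS3 at 12.7 and OAS1 at 6.27. ADAR edits adenosine to inosine in double-stranded RNA and EIF2AK2 encodes PKR, a kinase that stops translation when it binds such RNA. Together these 2 genes made up 70.4% to 75.3% of the members' summed CPM in each group.

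At the other end, 7 members were at or near 0 throughout. Over all 14 libraries together, XAF1 had 1 count, IFI44L and IFIH1 had 2 each, IFITM1 had 6, TRIM22 had 7, MX2 had 8 and OASL had 12. IFIH1 encodes the sensor MDA5, and MX2 a GTPase that restricts viruses. MX1, the related GTPase long used as a marker of interferon action, had at most 5 counts in any library. No change could be detected in these genes at this depth. Between 15 and 21 members reached 1 CPM, depending on the group, and 8 reached 10 CPM in every group. A filter on low counts passed 22 members in batch 1 and 25 in batch 2. ISG15, IFI44, IFITM2 and IFITM3 passed in batch 2 and not in batch 1, and DHX58, which encodes LGP2, passed in batch 1 and not in batch 2. Since a read pair mostly gave 2 counts in batch 2, fewer pairs met the same minimum count there. Passing is therefore not comparable between the batches. OAS2 and the other 8 members not passed in either batch were among the genes with few counts.

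**Figure D1:**
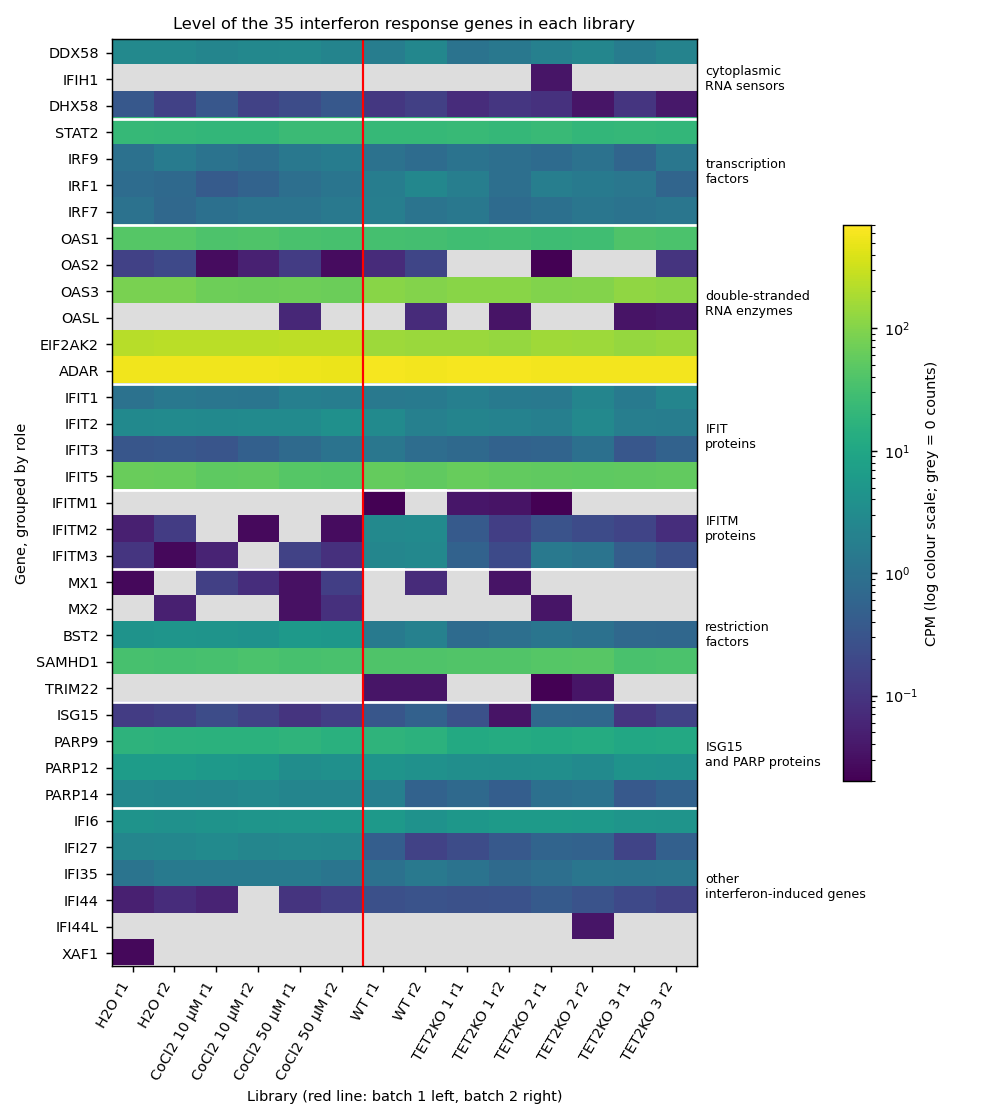
Level of each of the 35 interferon response genes (rows, grouped by role) in each of the 14 libraries (columns), in CPM on a logarithmic colour scale, with grey for a count of 0 and a red line between the batches. ADAR and EIF2AK2 were high in every library, XAF1, IFI44L and IFIH1 were at 0 in 13 of 14, and IFITM2 and IFITM3 reached 2 CPM in the 2 WT libraries and in no other.

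The first question was what CoCl2 did to these genes. At 10 µM, 4 of 22 members tested were called, all lower, namely OAS3, PARP12, IFIT5 and OAS1, by 0.21 to 0.33 on the log2 scale. In bulk libraries such as these, fewer cells of a type and less RNA per cell cannot be told apart. The background was high: 22.7% of all genes tested were called at this dose (11.6% higher, 11.1% lower), against 18.2% of the members. At 50 µM, 11 of 22 were called, 6 higher and 5 lower, against a background of 61.4% (30.4% higher, 31.1% lower). The share of the members called was therefore not above that of genes in general at either dose. The median log2 fold change of the members tested was -0.05 at 10 µM and 0.08 at 50 µM, beside 0.00 for all genes at both doses. At the higher dose OAS1, OAS3, IFIT5, PARP12 and ADAR fell, while IFIT1, IFIT3, STAT2, IRF7, IFI6 and EIF2AK2 rose, and neither direction held a larger share than among all genes. Both doses were compared with the same 2 H2O libraries.

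Among the enzymes that act on double-stranded RNA, the 2',5'-oligoadenylate synthetases OAS1 and OAS3, which make short oligoadenylates as an antiviral signal, fell at both doses. OAS3 (chromosome 12, 112938444 to 112973251, plus strand) was at 86.6 and 83.7 CPM in H2O, 69.2 and 66.2 CPM at 10 µM, and 68.5 and 66.5 CPM at 50 µM. All 4 treated libraries lay below both H2O libraries, and the 2 doses overlapped. The log2 fold change was -0.33 (SE 0.03, adjusted p 4.33e-18) at 10 µM and -0.34 (SE 0.03, adjusted p 3.89e-19) at 50 µM, with a difference between doses of -0.00 (adjusted p 0.946). OAS1 (chromosome 12, 112906783 to 112933222, plus strand) was at 44.8 and 43.6 CPM in H2O, 38.0 and 38.5 at 10 µM, and 34.98 and 33.9 at 50 µM. It went down in 2 steps with no overlap of the 3 groups, by 0.21 at 10 µM (adjusted p 1.30e-05) and by 0.36 at 50 µM (adjusted p 4.35e-14) on the log2 scale. The step between the doses (-0.15, adjusted p 0.00176) was not called by DESeq2 (adjusted p 0.053).

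The 2 most abundant members moved little. ADAR was at 551 and 562 CPM in H2O and at 527 and 514 CPM at 50 µM, a log2 difference of -0.10 with an SE of 0.02 (adjusted p 1.05e-07). At 10 µM, at 558 and 563 CPM, it overlapped H2O. EIF2AK2 was at 225 and 236 CPM in H2O and at 243 and 244 CPM at 50 µM, a rise of 0.08 on the log2 scale (SE 0.02, adjusted p 0.000474) that was lost without H2O replicate 1.

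The IFIT genes lie together on chromosome 10 (89283694 to 89420997) and encode proteins that bind foreign or unmodified RNA ends. They went in opposite directions at 50 µM. IFIT5 (89414568 to 89420997, plus strand), the most abundant of the 4 per length, was at 63.1 and 61.0 CPM in H2O, 52.9 and 54.4 CPM at 10 µM, and 43.5 and 43.1 CPM at 50 µM. Its groups did not overlap and stepped down with dose, by 0.21 (SE 0.03, adjusted p 4.05e-07) and then 0.52 (SE 0.04, adjusted p 1.79e-28) on the log2 scale against H2O. Between doses it fell by 0.31 (adjusted p 1.94e-12). IFIT3 (89327997 to 89340971, plus strand) was instead at 0.332 and 0.353 CPM in H2O, 0.313 and 0.489 CPM at 10 µM, and 0.736 and 1.06 CPM at 50 µM. Both libraries at 50 µM lay above the other 4, a 2.64-fold rise over H2O (log2 fold change 1.40, SE 0.34, adjusted p 0.000162). This rests on 13 and 14 counts in H2O against 23 and 38 at 50 µM. IFIT1 was at 1.048 and 1.31 CPM in H2O and 1.86 and 1.71 CPM at 50 µM, higher by 0.59 on the log2 scale (SE 0.21, adjusted p 0.0113), a call lost in DESeq2 and without H2O replicate 1 or CoCl2 50 µM replicate 1. IFIT2 was not called at either dose (0.21 at 50 µM, adjusted p 0.203).

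PARP12, an ADP-ribosyltransferase that limits several RNA viruses, had the deepest called fall among the 22 members tested in CoCl2. PARP12 (chromosome 7, 140023749 to 140062951, minus strand) was at 6.57 and 6.56 CPM in H2O, 5.497 and 5.17 CPM at 10 µM, and 3.33 and 3.86 CPM at 50 µM. Each dose lay below the one before without overlap. The log2 fold change was -0.86 at 50 µM (SE 0.12, adjusted p 3.65e-11), a 1.82-fold lower level, and -0.56 between doses (adjusted p 4.47e-05). At 10 µM the log2 fold change was -0.30 (SE 0.10, adjusted p 0.0212), and this call was lost in DESeq2 and without either H2O replicate or CoCl2 10 µM replicate 2. PARP9 and PARP14, of the same family, were not called at either dose.

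**Figure D2:**
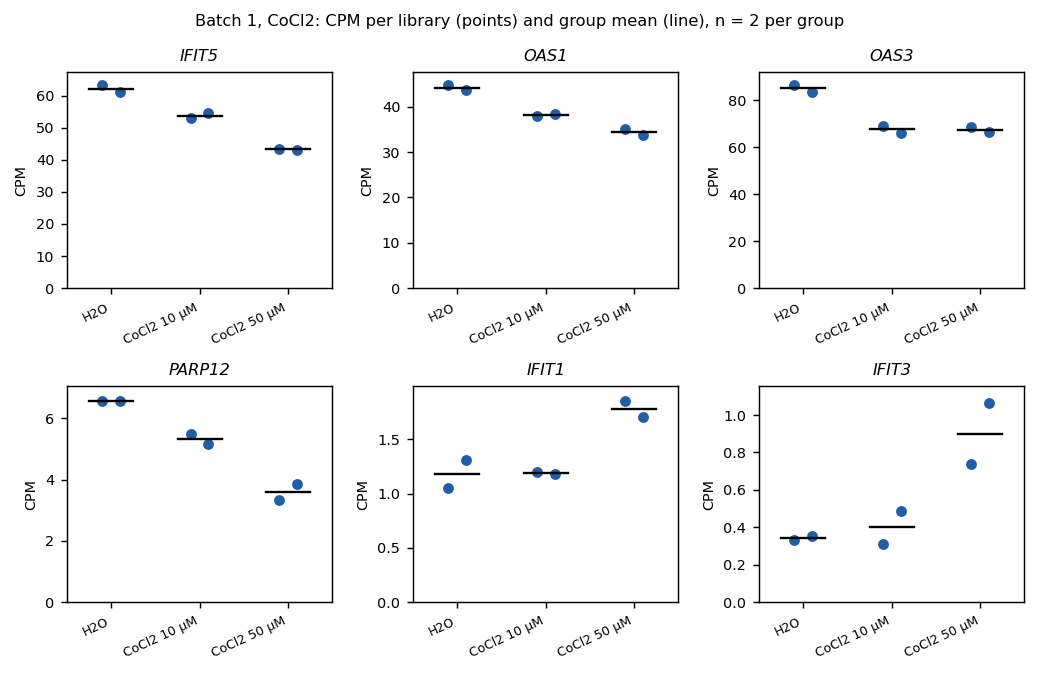
CPM in each of the 6 batch 1 libraries (points) with the group mean of n = 2 (line) for 6 members, on linear axes from 0. IFIT5, OAS1, OAS3 and PARP12 were lower in all 4 CoCl2 libraries than in both H2O libraries, while IFIT1 and IFIT3 were highest at 50 µM.

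Of the 4 transcription factors, STAT2, IRF1 and IRF9 were called higher at 50 µM than at 10 µM and IRF7 was not (0.29, adjusted p 0.332). STAT2, at 22.6 and 21.7 CPM in H2O, was at 20.1 and 20.6 CPM at 10 µM and at 25.3 in both libraries at 50 µM. The 2 doses thus lay on either side of H2O without overlap. The rise over H2O was 0.19 on the log2 scale (SE 0.05, adjusted p 0.000754), the fall at 10 µM was not called (-0.12, adjusted p 0.101), and the difference between doses was 0.31 (adjusted p 2.35e-07). IRF1, an early activator induced by interferon gamma, was at 0.792 and 0.706 CPM in H2O, 0.399 and 0.566 at 10 µM and 0.928 and 1.15 at 50 µM. IRF1 differed between doses by 1.10 (SE 0.31, adjusted p 0.00127), a call lost in DESeq2 and without CoCl2 50 µM replicate 2, and from H2O at neither dose. IRF9, the DNA-binding subunit of ISGF3, also differed between doses (0.59, adjusted p 0.0312), a call lost in DESeq2, with no filter on low counts, and without CoCl2 10 µM replicate 2 or CoCl2 50 µM replicate 2. Of the exon length of IRF9, 42.2% is shared with another gene, AL136295.5, on the same strand, so its counts are uncertain. IRF7, which amplifies interferon production, was at 1.02 and 0.681 CPM in H2O and 1.12 and 1.37 CPM at 50 µM, a log2 fold change of 0.56 (adjusted p 0.0460) lost in DESeq2, with no filter on low counts, and without H2O replicate 2 or CoCl2 50 µM replicate 2.

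Directly between the doses, 10 of 22 members were called, 6 higher and 4 lower at 50 µM, with a background of 52.8% (26.2% higher, 26.5% lower). Of the other members, BST2 (tetherin, which holds budding virions at the cell surface) was higher at 50 µM than at 10 µM by 0.31 on the log2 scale (adjusted p 0.0223). That call was lost in DESeq2 and without CoCl2 10 µM replicate 2 or CoCl2 50 µM replicate 1. IFI6, an inhibitor of cell death, rose over H2O by 0.27 (adjusted p 0.0466), from 4.24 and 3.96 CPM to 4.87 and 4.98 CPM, a call lost in DESeq2, with no filter on low counts, and when any 1 of the 4 libraries compared was left out. SAMHD1, DDX58, DHX58, IFI27, IFI35, PARP9, PARP14 and IFIT2 were not called in any of the 3 comparisons, with log2 fold changes between -0.21 and 0.29.

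**Figure D3:**
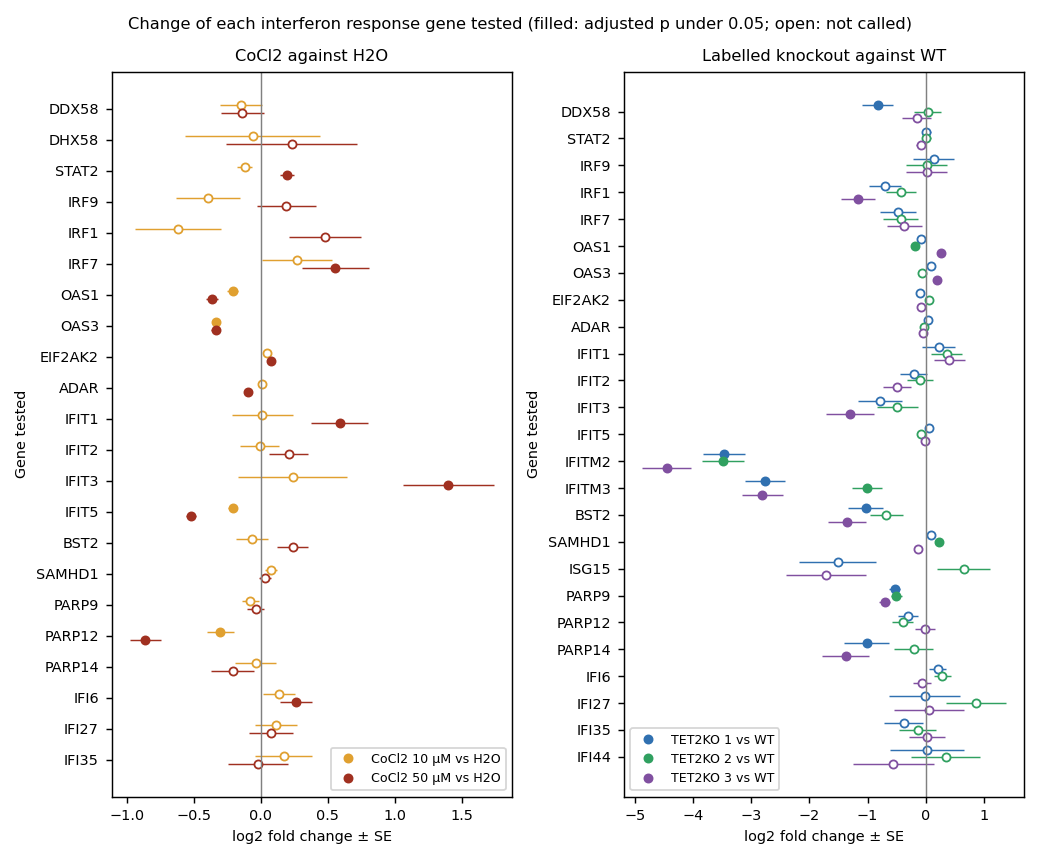
Log2 fold change with its SE for each member tested, in CoCl2 against H2O (left, 22 members) and in each labelled knockout against WT (right, 25 members), with filled symbols for an adjusted p under 0.05. On the left IFIT3 stands at 1.40 and PARP12 at -0.86 for 50 µM, and on the right IFITM2 and IFITM3 hold the lowest values.

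The other question concerned the 3 labelled TET2 knockouts set against WT. In TET2KO #1, 6 of 25 members tested were called, all lower, against a background of 17.5% of all genes. In TET2KO #2, 5 of 25 were called, 4 lower and 1 higher (background 26.3%). In TET2KO #3, 9 of 25 were called, 7 lower and 2 higher (background 18.9%). Of all genes, 9.72% were called lower and 7.79% higher in TET2KO #1, 14.3% lower and 12.0% higher in TET2KO #2, and 9.96% lower and 8.90% higher in TET2KO #3. Members called lower thus made up a larger share than that of all genes in TET2KO #1 and #3, and a share near it in TET2KO #2. No test of that difference was made, and the 3 comparisons share the 2 WT libraries. The median log2 fold change of the members tested was -0.21, -0.08 and -0.14 for TET2KO #1, #2 and #3, beside 0.00 for all genes. IFITM2, IFITM3 and PARP9 were lower in every labelled knockout, and BST2, PARP14, IRF1, IFIT3, DDX58 and OAS1 were called lower in 1 or 2 of them. OAS1 was called lower in TET2KO #2 and higher in TET2KO #3.

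The deepest falls among the 25 members tested were those of the interferon-induced transmembrane genes IFITM2 and IFITM3, whose products stop enveloped viruses from fusing with endosomal membranes. IFITM2 (chromosome 11, 307631 to 315272, plus strand) was at 2.73 and 2.96 CPM in WT, 0.380 and 0.141 CPM in TET2KO #1, 0.287 and 0.217 CPM in TET2KO #2, and 0.171 and 0.0780 CPM in TET2KO #3. Both WT libraries were thus far above all 6 labelled knockout libraries. In counts, these were 150 and 166 in WT against 4 to 20 in the labelled knockouts. The level was 11.0-fold lower in TET2KO #1 (log2 fold change -3.46, SE 0.36, adjusted p 2.07e-16), 11.2-fold lower in TET2KO #2 (-3.48, SE 0.36, adjusted p 7.43e-17) and 21.9-fold lower in TET2KO #3 (-4.46, SE 0.42, adjusted p 2.32e-19). The labelled knockouts did not differ detectably from one another in IFITM2 (adjusted p 0.495).

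IFITM3 (chromosome 11, 319676 to 327537, minus strand) was at 2.40 and 2.604 CPM in WT, 0.532 and 0.212 CPM in TET2KO #1, 1.36 and 1.12 CPM in TET2KO #2, and 0.444 and 0.253 CPM in TET2KO #3. WT was highest without overlap, and TET2KO #2 lay between WT and the other two. The level was 6.80-fold lower in TET2KO #1 (-2.77, SE 0.34, adjusted p 4.09e-12) and 7.01-fold lower in TET2KO #3 (-2.81, SE 0.35, adjusted p 2.38e-12). It was 2.01-fold lower in TET2KO #2 (-1.01, SE 0.25, adjusted p 0.000876), a call that DESeq2 did not make (adjusted p 0.053). IFITM3 differed among the 3 labelled knockouts (adjusted p 2.65e-05). IFITM1 had 0 to 2 counts per library. IFITM1 and IFITM2 share 351 exon bases on the same strand (37.5% and 22.7% of their exon length), and the 3 genes are close paralogs, so the split of reads between them is uncertain.

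In batch 1, IFITM2 was at 0 to 0.126 CPM and IFITM3 at 0 to 0.160 CPM, well below the WT libraries, although H2O is of wild-type genotype too. The batches were scaled separately and not tested against each other, and batch and culture cannot be told apart. Many markers of other cell types were lower in the labelled knockouts too. The summed level of 10 mesenchymal or fibroblast markers was 661 to 685 CPM in WT, 221 to 224 in TET2KO #1, 286 to 296 in TET2KO #2, 202 to 203 in TET2KO #3 and 182 to 184 in H2O, with COL1A2 at 0 in both WT libraries. The 10 endothelial markers summed to 16.5 to 16.8 CPM in WT and 2.88 to 7.45 CPM in the labelled knockouts. Of the 9 mesenchymal markers tested, 6, 7 and 6 were called lower and 1, 1 and 2 higher in TET2KO #1, #2 and #3, beside the 9.72%, 14.3% and 9.96% of all genes called lower. Their part in the falls of IFITM2, IFITM3 and the genes below was not tested. Leukocyte markers summed to 7.89 to 16.9 CPM in batch 2, with AIF1 at 0 throughout and PTPRC at 0 in both WT libraries. The 10 adrenergic neuroblastoma markers summed to 5523 to 5565 CPM in TET2KO #2, below the 7308 to 7420 of WT, 7478 to 7618 of TET2KO #1 and 7517 to 7527 of TET2KO #3. The lower sum was not a fall of the list: of 9 markers tested in TET2KO #2, 3 were called higher and 2 lower. The median log2 fold change of these markers was -0.01, and 12.0% of all genes were called higher and 14.3% lower. Their part in the levels of TET2KO #2 was not tested. In batch 1 they summed to 6527 to 7426 CPM, and none was at 0 in both libraries of any group.

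PARP9, an ADP-ribosyltransferase that works as a heterodimer with the ubiquitin ligase DTX3L, was the only other member called in every labelled knockout. PARP9 (chromosome 3, 122527924 to 122564577, minus strand) was at 17.9 and 16.9 CPM in WT, 11.5 and 12.5 in TET2KO #1, 11.7 and 12.7 in TET2KO #2, and 10.4 and 11.0 in TET2KO #3. Both WT libraries lay above all 6 others. The log2 fold change was -0.53 (SE 0.10, adjusted p 1.94e-06), -0.51 (SE 0.09, adjusted p 2.94e-06) and -0.71 (SE 0.10, adjusted p 4.61e-10) for #1, #2 and #3. DTX3L, which starts beside PARP9 on the opposite strand and shares 139 exon bases with it, was also lower: 22.6 and 23.6 CPM in WT against 15.4 to 18.7 CPM in the labelled knockouts. Its log2 fold changes were -0.49, -0.36 and -0.51 (adjusted p 4.59e-07, 0.000195 and 1.42e-07). The counting did not use strand, and the shared bases are 1.56% of the exon length of PARP9.

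BST2 (chromosome 19, 17402939 to 17405630, minus strand) was at 1.46 and 2.00 CPM in WT, 0.761 and 0.918 in TET2KO #1, 1.18 and 0.977 in TET2KO #2, and 0.683 and 0.663 in TET2KO #3. WT was highest in all comparisons, without overlap. The fall was 2.56-fold in TET2KO #3 (log2 fold change -1.36, SE 0.32, adjusted p 0.000560) and 2.05-fold in TET2KO #1 (-1.04, SE 0.31, adjusted p 0.00824). The latter call was lost without WT replicate 2 or TET2KO #1 replicate 1. TET2KO #2 missed the threshold (-0.68, adjusted p 0.0679), and BST2 did not differ detectably among the labelled knockouts (adjusted p 0.289). SAMHD1, a nucleotide hydrolase that starves reverse transcription, stood out for a rise: 38.7 and 38.8 CPM in WT against 43.8 and 46.9 CPM in TET2KO #2 (log2 fold change 0.22, SE 0.06, adjusted p 0.00214), lost without TET2KO #2 replicate 2.

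**Figure D4:**
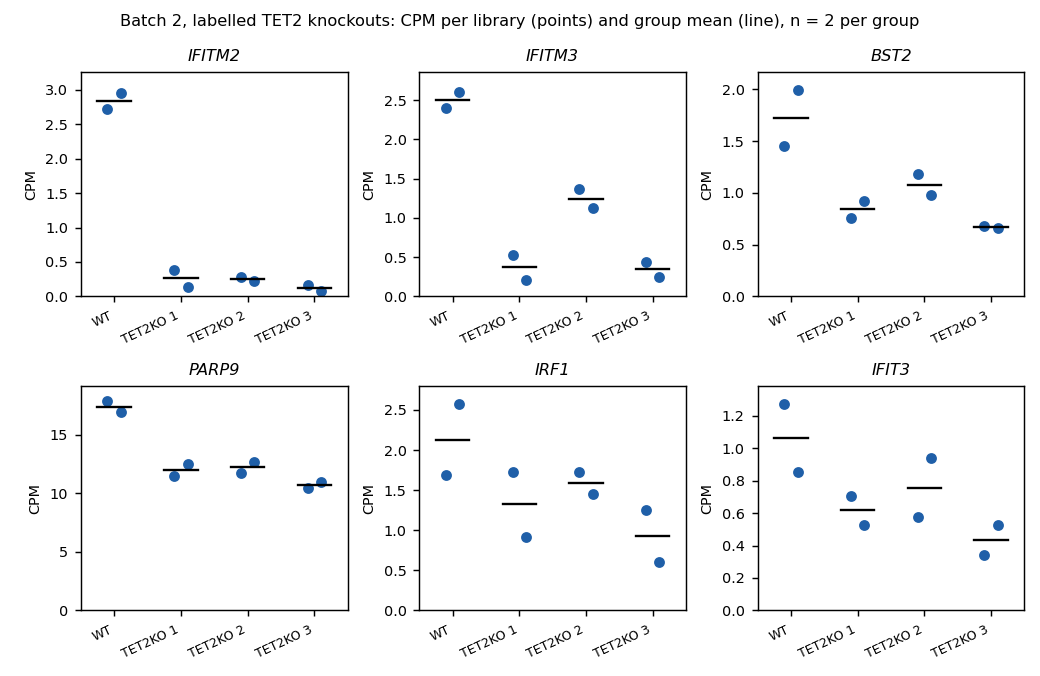
CPM in each of the 8 batch 2 libraries (points) with the group mean of n = 2 (line) for 6 members, on linear axes from 0. The 2 WT libraries were above all 6 labelled knockout libraries for IFITM2, IFITM3, BST2 and PARP9, whereas for IRF1 and IFIT3 some of them overlapped.

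For 4 further members the calls rested on less. IRF1 (chromosome 5, 132481609 to 132490777, minus strand) was at 1.69 and 2.57 CPM in WT, while TET2KO #3 had 1.25 and 0.604 CPM, a log2 change of -1.17 (SE 0.29, adjusted p 0.00106). Its replicates differed widely, and the call was lost without WT replicate 2 or TET2KO #3 replicate 2. IFIT3 was at 1.27 and 0.856 CPM in WT and 0.342 and 0.526 CPM in TET2KO #3 (-1.31, SE 0.41, adjusted p 0.0123), a call lost in DESeq2 and without WT replicate 1 or TET2KO #3 replicate 1. DDX58, which encodes RIG-I, was at 1.71 and 2.51 CPM in WT and 1.06 and 1.31 CPM in TET2KO #1 (-0.83, SE 0.27, adjusted p 0.0195). That call was lost in DESeq2 and without WT replicate 2 or either TET2KO #1 replicate. PARP14, another ADP-ribosyltransferase, had WT libraries at 1.86 and 0.535 CPM (102 and 30 counts), which overlapped every labelled knockout. Its log2 fold changes of -1.02 in TET2KO #1 (adjusted p 0.0482) and -1.38 in TET2KO #3 (adjusted p 0.00720) became 0.13 and -0.23 without WT replicate 1. The TET2KO #1 call was also lost in DESeq2, with no filter on low counts and without either TET2KO #1 replicate or TET2KO #2 replicate 1, and the TET2KO #3 call in DESeq2 and without TET2KO #3 replicate 1.

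The oligoadenylate synthetases moved apart between the labelled knockouts. OAS1 was at 31.4 and 30.6 CPM in WT, 28.6 and 29.7 in TET2KO #1, 26.7 and 27.8 in TET2KO #2, and 38.5 and 35.8 in TET2KO #3. It was thus lowest in #2 and highest in #3, with no overlap between those groups and WT. OAS1 was lower in TET2KO #2 by 0.18 on the log2 scale (adjusted p 0.0390), a call lost in DESeq2 and without any 1 of the 4 libraries compared, and higher in TET2KO #3 by 0.27 (SE 0.07, adjusted p 0.00111), lost without TET2KO #3 replicate 1. OAS3 was higher in TET2KO #3 as well, at 122 and 116 CPM against 108 and 99.7 CPM in WT (log2 fold change 0.20, SE 0.04, adjusted p 0.000180), a call lost without WT replicate 2. Both genes differed among the labelled knockouts (adjusted p 3.80e-09 and 1.27e-06).

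ISG15, a ubiquitin-like modifier and one of the strongest interferon targets, was at 0.327 and 0.517 CPM in WT, 0.266 and 0.0353 in TET2KO #1, 0.682 and 0.651 in TET2KO #2, and 0.103 and 0.156 in TET2KO #3. TET2KO #2 was above WT and the other two below it, on 2 to 38 counts per library. No labelled knockout was called against WT (log2 fold change -1.52, 0.65 and -1.71, adjusted p 0.104, 0.316 and 0.0648), but the 3 differed among themselves (adjusted p 0.000331). When all 14 libraries shared 1 fit, ISG15 was called lower in TET2KO #1 and #3. In all, 8 of 25 members differed among the labelled knockouts, with a background of 37.6%. STAT2, IRF9, IRF7, IFIT1, IFIT2, IFIT5, EIF2AK2, ADAR, PARP12, ISG15, IFI6, IFI27, IFI35 and IFI44 were not called against WT in any labelled knockout. The average of the 3 labelled knockouts, each weighted alike, gave 7 members called lower and 0 higher (background 18.9%, made up of 11.4% lower and 7.54% higher; 8 members had an unadjusted p under 0.05): IFITM2, IFITM3, BST2, PARP14, IFIT3, IRF1 and PARP9. DESeq2 called 4 for this average. The falls of PARP14, IFIT3 and IRF1 in the average were lost in DESeq2, those of BST2 and IRF1 without WT replicate 2, those of PARP14 and IFIT3 without WT replicate 1, TET2KO #1 replicate 2 or TET2KO #3 replicate 1, and that of IFIT3 without TET2KO #2 replicate 1. With the 6 knockout libraries as 1 group, 2 of the 7 calls were kept, those of IFITM2 and PARP9.

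Upstream in the pathway, 11 receptor and JAK-STAT genes were tested. At 50 µM CoCl2, 5 were called higher and 2 lower, 63.6% of the list beside 61.4% of all genes, with JAK2 up by 0.33 and IFNGR1, a subunit of the interferon gamma receptor, up by 0.23 on the log2 scale. IL10RB, a subunit shared by the type III interferon receptor, was lower (-0.85, adjusted p 0.00155). The calls of JAK2 and IL10RB were lost in DESeq2 and without CoCl2 50 µM replicate 2. At 10 µM only IFNAR1, of the type I receptor, was called (0.08, adjusted p 0.0429), and leaving out any 1 of the 4 libraries compared ended that call. Called higher were 0, 1 and 0 and lower 1, 2 and 1 in TET2KO #1, #2 and #3, which is 9.09%, 27.3% and 9.09% of the list beside 17.5%, 26.3% and 18.9% of all genes. STAT3, the signal carrier of interleukin-6 type cytokines, was lower in each, at 253 and 245 CPM in WT against 184 to 204 CPM in the 6 others. Its log2 fold changes were -0.31, -0.43 and -0.37 for TET2KO #1, #2 and #3 (adjusted p 2.56e-13, 1.34e-22 and 4.39e-18).

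Of 13 negative regulators, 13 were tested in batch 2, with 3, 3 and 2 called lower in TET2KO #1, #2 and #3 and 1, 1 and 0 higher. These are 30.8%, 30.8% and 15.4% of the list, beside 17.5%, 26.3% and 18.9% of all genes. SOCS3, a feedback inhibitor of JAK signalling and a known STAT3 target, was at 3.64 and 3.92 CPM in WT and at 0.376 to 1.10 CPM in the labelled knockouts. All 6 lay below WT, with log2 fold changes of -1.93, -2.32 and -2.94 (adjusted p 8.18e-12, 8.66e-15 and 3.47e-18). NLRC5, known also as an activator of MHC class I genes, was at 9.17 and 9.04 CPM in WT and 3.50 to 5.16 CPM in the labelled knockouts (-1.15, -0.97 and -0.88). USP18, which removes ISG15 from proteins and is itself induced by interferon, was called in none of these comparisons, nor in CoCl2. In batch 1, 11 were tested, with 1 called higher and 1 lower at 10 µM, and 3 higher and 3 lower at 50 µM. These are 18.2% and 54.5%, beside 22.7% and 61.4% of all genes. NLRC5 fell at both doses (-0.21, adjusted p 0.0314, and -0.38, adjusted p 1.72e-05), the former lost in DESeq2 and without either H2O replicate or CoCl2 10 µM replicate 1. At 50 µM CISH also fell (-0.49) and IRF2BP1 rose (0.31).

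Among 15 genes of nucleic acid sensing, 10 were tested in batch 1 and 12 in batch 2. At 50 µM, 4 of 10 were called higher and 4 lower, 80.0% beside 61.4% of all genes. STING1, the adaptor of cytoplasmic DNA sensing, had the deepest fall of those tested, from 3.27 and 2.72 CPM in H2O to 1.34 and 1.79 CPM (-0.92, SE 0.18, adjusted p 1.65e-06). RNF135, a further ubiquitin ligase for RIG-I, and TRAF3, an adaptor, fell as well (-0.78 and -0.23). In the labelled knockouts, 2, 2 and 3 were called lower and 0, 0 and 1 higher, which is 16.7%, 16.7% and 33.3% of the list beside 17.5%, 26.3% and 18.9% of all genes. TRIM25, a ubiquitin ligase that assists RIG-I, had 48.7 and 45.9 CPM in WT and 38.5 to 40.8 CPM in all 6 others, a fall of 0.27, 0.25 and 0.26 on the log2 scale in #1, #2 and #3. At 10 µM CoCl2 it was higher by 0.10 (adjusted p 0.00444), a call lost in DESeq2 and without H2O replicate 1 or CoCl2 10 µM replicate 2. IKBKE, a kinase that phosphorylates IRF3, had 18 and 30 counts in WT, 8 and 4 in TET2KO #1 and 8 and 0 in TET2KO #3, calls (adjusted p 0.0404 and 0.0112) that were both lost without WT replicate 2. The former was also lost in DESeq2, with no filter on low counts and without either TET2KO #1 replicate, and the latter without TET2KO #3 replicate 2. IKBKE was not called in TET2KO #2, and its counts in TET2KO #1 and #3 were below the filter's minimum count of 10. TBK1, its relative, was lower in TET2KO #3 (-0.23, adjusted p 0.00140), lost without TET2KO #3 replicate 1. TICAM1, the adaptor TRIF, was lower in TET2KO #2 (-0.25, adjusted p 0.0378), lost in DESeq2, without either WT replicate and without TET2KO #2 replicate 1.

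Another 56 interferon-stimulated genes were in the tables, of which 39 were tested in batch 1 and 45 in batch 2. At 10 µM, 2 were called higher and 6 lower, and at 50 µM 11 were higher and 8 lower. These shares of 20.5% and 48.7% were below the 22.7% and 61.4% of all genes. EPSTI1 rose from 2 and 1 counts in H2O to 15 and 15 at 50 µM (adjusted p 3.34e-06), and H2O was at or below the level that a count of 0 allows. The H2O counts were also below the filter's minimum count of 10. EPSTI1 was thus tested only through its counts in CoCl2, and its call is no separate support for a rise. SP110, a nuclear body protein, rose by 1.03 (adjusted p 0.000160). NMI, a partner of STAT proteins and of the member IFI35, fell with dose from 9.68 and 9.18 CPM to 5.78 and 6.95 CPM and then 3.94 and 4.17 CPM (-1.21 at 50 µM, SE 0.10, adjusted p 3.11e-22). Of 10 leukocyte markers, the summed level rose from 5.95 to 6.44 CPM in H2O to 19.5 to 20.1 CPM at 50 µM, and CD68, a lysosomal protein gene, rose 3.62-fold. Its part in the changes at 50 µM was not tested. PTPRC, which marks nearly all leukocytes, had 0 counts in 5 of the 6 batch 1 libraries and AIF1 and ITGAM in all 6.

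In the labelled knockouts, 15 of these 45 genes were called lower and 1 higher in TET2KO #1, 6 lower and 3 higher in TET2KO #2, and 13 lower and 1 higher in TET2KO #3. The shares called were 35.6%, 9 of 45 genes, and 31.1%, beside 17.5%, 26.3% and 18.9% of all genes, so that in TET2KO #2 the list stood no higher than genes in general. The list's median log2 fold change was -0.19, -0.08 and -0.20. SP100, a nuclear body protein, was at 1.91 and 1.64 CPM in WT, 0.133 and 0.247 in TET2KO #1, 1.29 and 1.61 in TET2KO #2, and 0.171 and 0.390 in TET2KO #3. It was low in #1 and #3 and not called in #2 (-0.29, adjusted p 0.463), and it differed among the 3 (adjusted p 8.27e-10). CMPK2 and the GTPase gene GBP2 were higher in TET2KO #2 than in WT (0.90 and 0.81, adjusted p 0.00169 and 1.61e-09), the CMPK2 call being lost without WT replicate 2. CMPK2 was lower in TET2KO #1 (-1.07, adjusted p 0.0146), and GBP2 lower in TET2KO #1 and #3 (-0.70 and -0.56). These results, and the differences of SP100 and GBP2 among the 3, were not checked in DESeq2 or with a library left out. GBP2 was at 11.7 and 13.7 CPM in TET2KO #2, 7.69 and 6.83 CPM in WT, and 4.12 to 5.85 CPM in the other two, and the difference among them was called (adjusted p 2.18e-26). GBP4 went the other way in TET2KO #2, at 4.09 and 3.44 CPM against 7.68 and 5.78 CPM in WT (-0.84, adjusted p 4.11e-06). TRIM38, a regulator of innate signalling, was at 3.40 and 3.26 CPM in WT and 0.513 and 0.390 CPM in TET2KO #3 (-2.87, adjusted p 4.62e-16). GBP3 had 72 and 54 counts in WT and 4 and 23 in TET2KO #1 (adjusted p 8.23e-05).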

How the data were processed

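The deposited files hold raw counts for each gene name, made by the authors. Per the file headers, these counts came from featureCounts 1.5.3 in batch 1 and 2.0.5 in batch 2, with the paired-end option, no strand option and no option for multi-mapping reads, with a GENCODE annotation of GRCh38 limited to exons of protein-coding genes. The submitters' processing notes name Trimmomatic 0.36, STAR 2.6.1d and Subread 1.5.3. Among counts of 1 to 10, between 77.3% and 80.5% were even in batch 2, against 39.0% to 42.3% in batch 1, so a batch 2 count mostly stood for 1 read of a pair. Libraries were oligo-dT primed and strand-specific, per the labels' protocols.

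Groups and replicate numbers were read from the labels. The main test was the quasi-likelihood test of edgeR 4.0.16 (R 4.3.3; filterByExpr with a minimum count of 10, TMM, robust glmQLFit with legacy=FALSE and a lower limit on the dispersion just above 1e-04), fitted per batch over all groups without a replicate block. Adjusted p-values are Benjamini-Hochberg values over all genes tested. For an average, each of the 3 labelled knockouts had equal weight, and the difference among them was 1 F-test. Values named by DESeq2 are from version 1.42.0. CPM, RPKM and SE were computed from the deposited counts. On simulated counts the test recovered 93.0% of 2-fold and 87.0% of 1.5-fold changes in batch 1 and 89.7% and 74.2% in batch 2, and 6.74% and 4.22% of the calls were false. Those counts were drawn singly, not in pairs, with the spread estimated from these libraries. Only 97 or 100 genes of all levels changed at each fold, far fewer than were called in the data. The shares therefore need not hold for these data or for members with few counts. Deviations of same-numbered replicates correlated at -0.0365 to 0.0739, so the numbers were not taken to pair the samples. Replicates of H2O and CoCl2 spread little beyond sampling noise, with chi-square values for each gene between 1.226 (10 µM) and 1.465 (50 µM). The p-values of batch 1 rest on this narrow spread. Among WT and the labelled knockouts the values lay between 3.86 (TET2KO #2) and 5.52 (TET2KO #3). Counts there mostly came in pairs, which by itself raises the value, so the excess over sampling noise was not determined.

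All 35 members are accounted for. The rule for named genes gave in full, per comparison against H2O or WT, up to 10 called members with the largest log2 fold change, TET2, and up to 3 called genes of each pathway list. The text shows part of the last group, chosen after their values were seen, as were ISG15, DTX3L, USP18, CD68 and further values of GBP2 and CMPK2. Some genes of the lists are not reported here. The members and lists were chosen with earlier results of these data known.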

Additional observations from a re-analysis of the deposited data

Results flagged for a closer look

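Of 25 members tested, 8 (32.0%) differed among the 3 labelled knockouts in an F-test of edgeR over the 3, given here as the largest minus the smallest log2 level. Of all genes 37.6% differed in this test, so the members did so no more often than genes in general. The difference was 2.37 for ISG15 (adjusted p 0.000331) and 1.80 for IFITM3 (adjusted p 2.65e-05), with TET2KO #2 the highest for both. It was 0.45 for OAS1 (adjusted p 3.80e-09) and 0.26 for OAS3 (adjusted p 1.27e-06), with TET2KO #3 the highest and TET2KO #2 the lowest. SAMHD1 differed by 0.36 (adjusted p 9.33e-07) and EIF2AK2 by 0.15 (adjusted p 0.000993). The EIF2AK2 call was lost without TET2KO #2 replicate 1. DDX58 differed by 0.86 (adjusted p 0.0176) and PARP14 by 1.17 (adjusted p 0.0419). The DDX58 call was lost in DESeq2 and without TET2KO #2 replicate 2 or either TET2KO #1 replicate. The PARP14 call was lost in DESeq2, with no filter on low counts, and without TET2KO #1 replicate 2, TET2KO #3 replicate 1 or either TET2KO #2 replicate.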

How the results depend on the processing

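Members called numbered 11 at 50 µM against H2O and 7 when all 14 libraries shared 1 fit. Between the doses there were 10, against 4 in DESeq2 and 6 in the fit of all 14 libraries. For TET2KO #2 there were 5, against 3 in DESeq2 and 3 without TET2KO #2 replicate 2. For the average of the labelled knockouts there were 7, against 4 in DESeq2 and 2 (IFITM2 and PARP9) with all 6 knockout libraries as 1 group. Leaving out 1 library at a time gave 3 to 4 members for 10 µM, 8 to 11 for 50 µM, 7 to 10 between doses, 4 to 7 for TET2KO #1, 3 to 5 for TET2KO #2, 6 to 9 for TET2KO #3, 5 to 7 for the average and 6 to 9 among the labelled knockouts. A group left with 1 library was assumed to vary like the others. With the replicate number as a block the counts were 4, 11, 10, 5, 5, 9, 7 and 8 in the same order, and the block ended the TET2KO #1 calls of PARP14 and IKBKE. The numbers were not shown to pair the samples. PARP14 changed sign without WT replicate 1, with log2 fold changes from -1.66 to 0.13 in TET2KO #1 and from -1.51 to 0.28 in the average as 1 library was left out. Calls kept in every alternative that tested the gene were those of IFIT5, OAS1 and OAS3 at 10 µM. At 50 µM they were those of IFIT3, IFIT5, OAS1, OAS3, STAT2, PARP12 and ADAR. Of these, IFIT3 was tested in 11 of the 12 alternatives. In TET2KO #1 the calls kept were IFITM2, IFITM3 and PARP9, and in TET2KO #2 IFITM2 and PARP9. In TET2KO #3 they were IFITM2, IFITM3, BST2 and PARP9. The fit of all 14 libraries ended the 50 µM calls of IFI6, IFIT1, IRF7 and EIF2AK2 and the 10 µM call of PARP12. The cause was not tested.

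Of all genes, 3098 were called at 10 µM against 1056 in DESeq2, 796 in the fit of all 14 libraries, 2063 without H2O replicate 1 and 1860 without CoCl2 10 µM replicate 2. Between doses 7198 were called, against 4745 in DESeq2 and 4674 in the fit of all 14. For the average, 2656 were called, against 256 with the knockout libraries as 1 group and 1587 without WT replicate 1. In TET2KO #1, 2462 fell to 1619 without WT replicate 1 and 1375 without its replicate 2. In TET2KO #2, 3698 fell to 2406 without its replicate 1, and in TET2KO #3, 2653 fell to 1616 without WT replicate 1 and 1568 without its replicate 1.

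Depth limits the members with few counts: 13 in batch 1 and 10 in batch 2 did not pass the filter. The alternatives were another normalization (RLE), no filter on low counts, a minimum count of 30, batch 2 counts halved, and those above.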
